A study of Mus musculus with 4 samples.

Results

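Cytosolic ribosomal protein genes encode the protein part of the 40S and 60S ribosomal subunits. They were chosen here by symbol, as protein-coding genes named Rpl or Rps with a number and an optional letter, Rpsa and the 3 acidic stalk genes Rplp0, Rplp1 and Rplp2, without the Rps6k kinases. The deposited count table held 82 of them among 22558 genes, with 32 genes of the small subunit, 47 of the large subunit and 3 of the stalk. The normalized table held 81 of 18324 genes, and 80 of the 11711 genes tested were members. RNA sequencing was performed on activated group 2 innate lymphoid cells (ILC2s), lymphocytes without antigen receptors that respond to the epithelial cytokine IL-33. The 2 WT libraries (C57BL/6) and the 2 libraries labelled ICAM-1 KO, from mice deficient in Icam1 in all cells (B6.129S4-Icam1tm1Jcgr/J) and labelled with the C57BL/6 background, came from lungs of mice aged 6 weeks by the labels. All mice had been given 0.5 µg rmIL-33 intranasally on 3 occasions, and each library was a pool of 4 mice whose lineage-negative CD45+ ST2+ CD127+ lung cells were sorted on day 4. No unchallenged libraries were analysed here, so every value refers to IL-33-activated cells, and a pool does not show the spread between animals.

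The ribosome reads mRNA with its small subunit and joins amino acids with its large subunit, and each ribosomal protein must be made in balance with the others and with ribosomal RNA. Ribosomal proteins are imported into the nucleolus, assembled with the help of biogenesis factors and exported as subunits. Their mRNAs are short, abundant and stable, and start with a run of pyrimidines, the 5′ terminal oligopyrimidine (TOP) motif, by which the mTORC1 kinase and the RNA-binding protein LARP1 control their translation. Lymphocytes raise ribosome production when they are activated to grow and divide.

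The region around the transcription start is shown for those of the 10 members with the smallest adjusted p that had an entry in the promoter table, and for Rps27, the member with the smallest difference. The sequences are from RefSeq on GRCm38.p6 and cover 10 bases before to 20 bases from the annotated start. They are written 5′ to 3′ on the gene's strand, and the capitals mark the longest unbroken run of C and T in the window.
Rps26, chr10:128626487-128626516, minus strand: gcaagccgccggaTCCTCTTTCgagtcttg
Rpl38, chr11:114668570-114668599, plus strand: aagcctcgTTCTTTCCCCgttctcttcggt
Rpl28, chr7:4792955-4792984, plus strand: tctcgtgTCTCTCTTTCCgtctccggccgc
Rplp2, chr7:141447641-141447670, plus strand: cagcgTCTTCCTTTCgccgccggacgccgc
Rps27, chr3:90213629-90213658, minus strand: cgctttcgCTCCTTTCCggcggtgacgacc
Rps16, chr7:28350679-28350708, plus strand: TTCTgtcgtgacgtagcactcaatgcgcct
Rpl27, chr11:101442235-101442264, plus strand: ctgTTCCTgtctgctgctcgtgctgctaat
Rpl37, chr15:5116603-5116632, plus strand: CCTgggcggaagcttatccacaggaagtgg
Rpl36a, chrX:134585644-134585673, plus strand: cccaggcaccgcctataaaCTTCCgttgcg
In Rpl38, Rpl28, Rplp2 and Rps27 the annotated start lay within a run of 9 to 11 pyrimidines. In Rps26 the run of 9 began after it. The 4 others had runs of 3 to 5 pyrimidines in this window, and annotated starts can lie some bases away from the start used in these cells.

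The promoter table held 62 of the 82 members, and for genes with more than 1 start the most upstream was used. Within 20 bases on either side of it, 28 of the 62 members (45.2%) had an unbroken C/T run of at least 8 bases, against 15.9% of all 27025 genes in the table. Among the 25 members of the table that passed the threshold for lower levels described below, 11 had such a run, and among the 37 others 17 had it. The letters CCGGAAG, the core that ETS factors such as GABP recognise, were found on either strand of the 300-base promoter in 25 of 62 members (40.3%) and in 9.14% of all genes. GCCATNTT, the core of YY1 sites, was found in 13 members (21%) and 6.2% of all genes, the GC box GGGCGG in 37 members (59.7%) and 35.9% of all genes, and the TATA box letters TATAAA in 7 members (11.3%) and 14.2% of all genes. CCGGAAG was in 11 of the 25 lower members and 14 of the 37 others, GGGCGG in 16 and 21, GCCATNTT in 3 and 10, and TATAAA in 4 and 3. Apart from TATAAA, these letters were more frequent in members than in genes at large, and they are matches, not measured binding sites.

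The libraries held 24796148 to 28782471 estimated counts on genes, and each tested member had at least 3027 counts in each library. The count of Icam1, the targeted gene, was 2579 and 2630 in WT, and with the label ICAM-1 KO it was 2812 and 3453 (log2 fold change 0.33, SE 0.108, adjusted p = 0.0745). Its RNA was not lower there, and counts summed over the gene do not show which part of it was read, so the genotype behind each direction rests on the labels, and the libraries with that label are called KO-labelled. The ILC2 genes Gata3, Il1rl1 and Il7r each had over 200 normalized counts in every library. Il1rl1 and Il7r encode ST2 and CD127, on which the cells were sorted. All 12 ILC2 markers were tested, and not all were as abundant, with Thy1 at 22.4 to 24.2 and Il13 at 11.1 to 35.2 normalized counts.

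Ribosomal protein mRNAs as a group were lower in the KO-labelled libraries, by about the same amount in nearly all members. All 80 members tested had a negative log2 fold change, with a median of -0.29 (interquartile range -0.36 to -0.25), which is 1.22-fold lower, while the median of all genes tested was 0.01. Both KO-labelled libraries lay below both WT libraries for 79 of the 80 members, as they did for 31.3% of all genes tested. By the quasi-likelihood test of edgeR, with p-values adjusted by Benjamini-Hochberg over all genes tested and a threshold of 0.05, 35 members (43.8%) were lower, against a background of 4.97% lower among all genes tested. No member was higher, against 8.8% of all genes tested. An unadjusted p under 0.05 was found for 74 members, all of them negative. Over all 11711 genes tested it was found for 3542, of which 1537 were negative. None of the 35 reached a 2-fold difference, which 0.538% of all genes tested did in this direction.

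**Figure D1:**
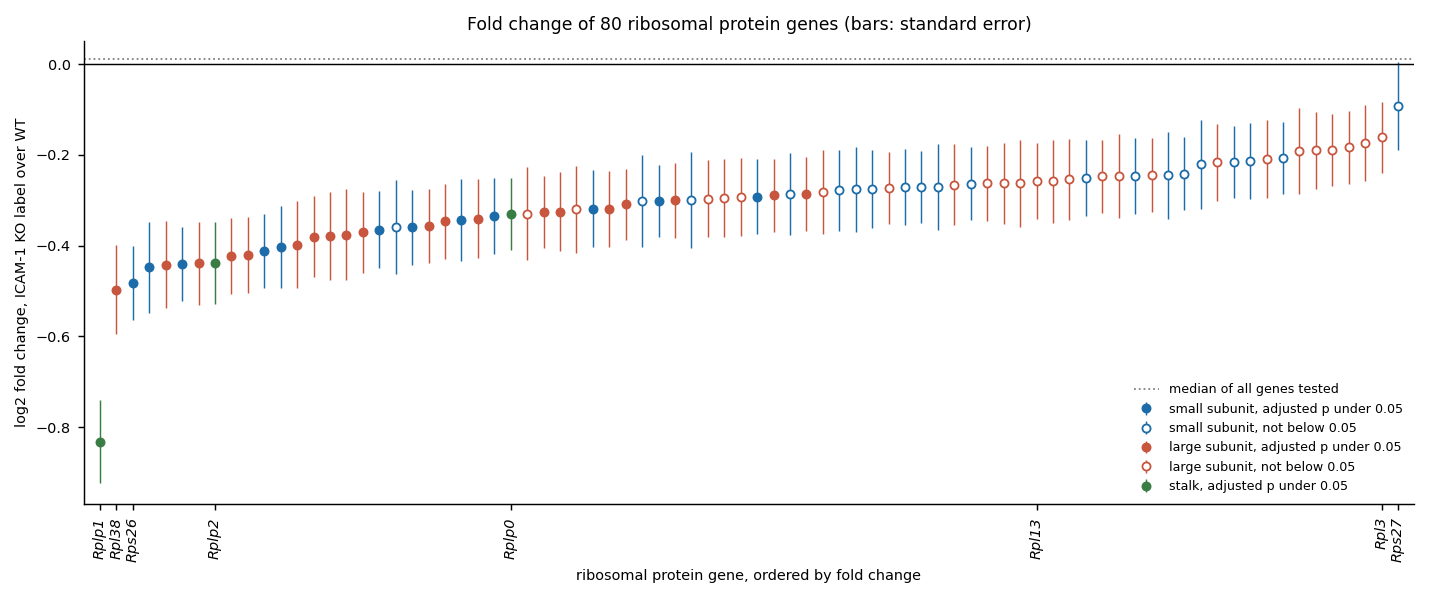
Log2 fold change of each of the 80 tested ribosomal protein genes, KO-labelled over WT libraries, on the y axis, with bars for the standard error, colours for subunit and filled points for an adjusted p under 0.05, where 8 members are labelled. The points form a narrow band below 0 from -0.50 (Rpl38) to -0.09 (Rps27), and Rplp1 lies apart at -0.83.

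The count of 35 depended on each of the 4 libraries. It was 11 without WT replicate 1, 2 without WT replicate 2, 10 without KO-labelled replicate 1 and 18 without KO-labelled replicate 2, where the group left with 1 library was assumed to vary like the other. With 1 library left out, the median log2 fold change of the members stayed negative, between -0.33 and -0.26. Under the 11 other normalizations, filters and tests with all libraries, 15 members passed each time. The members also moved together between libraries of the same label. WT replicate 2 was above WT replicate 1 in 75 of 80 members, by a median of 0.08 on the log2 scale, and KO-labelled replicate 2 was above replicate 1 in 58 of 80, by 0.05. The medians between libraries of different label ran from -0.40 to -0.25. For 79 of the 80 members the log2 fold change was larger in size than the gap between the WT libraries and that between the KO-labelled ones. The same count was not made over the other genes tested, so no background share stands beside it. Since members share their libraries and their scaling, the 80 differences are not independent.

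The members made up 4.58% and 4.79% of all counts in the WT libraries and 3.89% and 3.94% in the KO-labelled libraries. The groups did not overlap, and the mean fell from 4.68% ± 0.152 (SD, n = 2) to 3.92% ± 0.0332 (SD, n = 2), a difference of -0.766 percentage points. The exact permutation test (two-sided) gave p = 0.33, the smallest value that 2 against 2 libraries allow. Small subunit genes took 1.95% of counts in WT and 1.63% in the KO-labelled libraries, large subunit genes 2.47% and 2.09%, and the stalk genes 0.267% and 0.201%. Among member counts alone, the small subunit held 41.5% in WT and 41.6% in the KO-labelled libraries, so both subunits were lower in step. In bulk libraries such as these, less ribosomal protein mRNA per cell and fewer cells rich in it cannot be told apart.

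**Figure D2:**
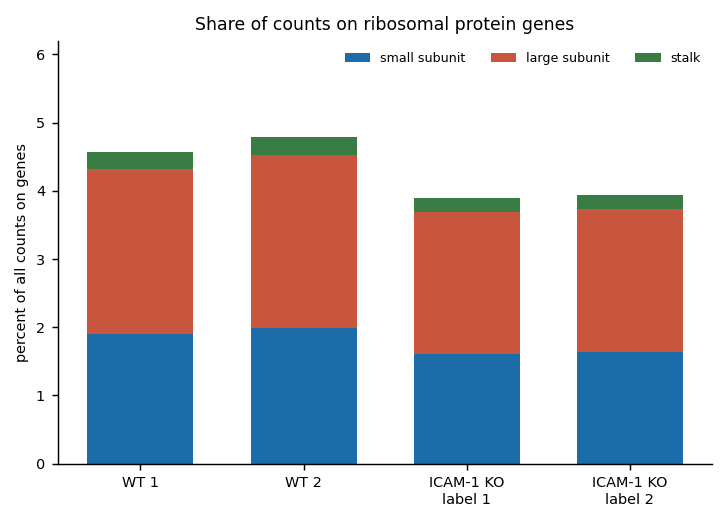
Percent of all counts on genes (y axis) taken by small subunit, large subunit and stalk genes in each of the 4 libraries (x axis), as stacked bars. Both WT bars reach above 4.5% and both KO-labelled bars end below 4%, with like proportions of the subunits.

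Negative log2 fold changes also prevailed among other abundant genes with short transcripts. Among genes whose mean normalized count reached 100, 15.1% were lower at an adjusted p under 0.05, members included. Without the members, 1885 such genes remained, with a median log2 fold change of -0.09. The 226 of them with a transcript under 1000 bases had a median of -0.23, and 79.6% of them were negative. Among these 226 genes 24.8% were lower at the same threshold, 56 genes, and 12 were higher. An unadjusted p under 0.05 with a negative log2 fold change was found for 114 of the 226. Both KO-labelled libraries lay below both WT libraries for 165 of the 226 genes and for 959 of the 1885. These limits on level and length were chosen after the data had been seen. They do not match the 226 genes to the members, some of which are longer, such as Rps20 with 3706 bases. Only members were left out, so other ribosome and translation genes can be among the 226. The interquartile range of these 226 genes was -0.32 to -0.06, wider than that of the members. Within the members, those with a transcript under 600 bases had 14 of 30 lower and a median of -0.31, and longer ones 21 of 50 and -0.28. Over the 80 members, the log2 fold change and the transcript length correlated with a Spearman's rho of 0.21, as a description across genes from the same libraries, and over the other genes tested this rho was 0.24. How much of the members' difference belongs to level and length was not tested.

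**Figure D3:**
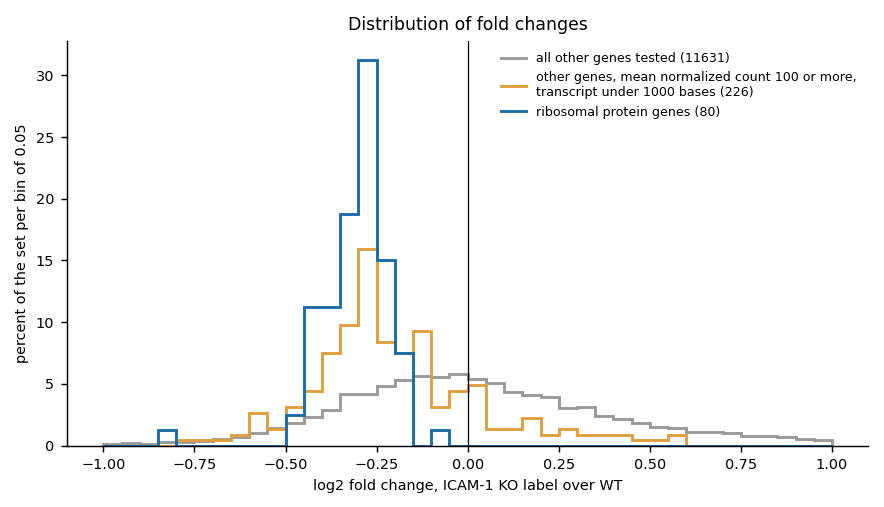
Percent of each gene set (y axis) per bin of 0.05 of log2 fold change (x axis) for the 80 ribosomal protein genes, 226 other genes of like level and length, and all 11631 other genes tested. The ribosomal protein genes and the 226 genes peak in the same bin, from -0.30 to -0.25, with medians of -0.29 and -0.23 and a wider spread in the 226, and all others centre near 0.01, while 9 of the 226 and 917 of the 11631 lie outside the axis.

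Markers of other cells moved with the same comparison, in which 8.8% of all genes tested were higher and 4.97% lower. The summed normalized count of 7 T cell markers was 291 and 380 in WT and 597 and 734 in the KO-labelled libraries, with 4 of 7 higher. For 5 B cell markers the sums were 156 and 144 against 299 and 240 (4 higher), for 7 macrophage markers 227 and 227 against 461 and 719 (6 higher), and for 6 endothelial markers 111 and 115 against 262 and 283 (6 higher). Epithelial markers summed to 414 and 185 against 522 and 1320, with 3 of 6 tested higher, and neutrophil markers to 62.9 and 59.3 against 162 and 124, with 4 of 4 higher. Eosinophil markers summed to 107 and 90.4 against 51.1 and 67.4 (2 higher and 2 lower of 4 tested), and mesenchymal markers to 14.8 and 46 against 36 and 78.3 (none called). No marker of these lists was at 0 in all 4 libraries. The 12 ILC2 markers summed to 5965 and 6572 against 5706 and 5919, with Il13 (log2 fold change -1.45), Il5 (-0.76) and Il2ra (-0.51) lower and Ptprc (0.39) and Klrg1 (0.41) higher, and the 5 proliferation genes to 1052 and 1240 against 1063 and 980, with none of the 5 called. The part of these cells in the ribosomal protein difference was not tested.

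The stalk genes encode the acidic proteins that form the lateral stalk of the large subunit, which recruits elongation factors to the ribosome. All 3 were lower in the KO-labelled libraries. Rplp1 is a gene of chromosome 9 (mm10, bases 61913284 to 61914542, minus strand). It had normalized counts of 469 and 535 in the WT libraries and 277 and 276 in the KO-labelled libraries. The KO-labelled libraries were nearly equal and far below both WT libraries. The log2 fold change was -0.83 (SE 0.0915, adjusted p = 0.00131), or 43.8% lower, and the lowest member after it was 0.34 above it on the log2 scale. Without each library in turn it ranged from -0.92 to -0.74, and Rplp1 passed the threshold each time.

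Rplp2, the partner of Rplp1 in the stalk, is found on chromosome 7 between bases 141447370 and 141451585. It had 425 and 455 normalized counts in WT and 304 and 333 in the KO-labelled libraries, with no overlap. Its log2 fold change was -0.44 (SE 0.0898, adjusted p = 0.0155). Rplp0, the base of the stalk and a frequent reference gene in quantitative PCR, lies on chromosome 5 from 115559467 to 115563727. It was the member with the highest level, at 1464 and 1486 normalized counts in WT and 1152 and 1151 in the KO-labelled libraries. Replicates differed little and the groups, of 2 libraries each, did not overlap. The log2 fold change was -0.33 (SE 0.079, adjusted p = 0.0277), or 20.5% lower. Per kilobase of transcript, the levels of Rplp0, Rplp1 and Rplp2 in WT were close to each other, at 1086, 1006 and 1045 normalized counts per kilobase. In the KO-labelled libraries they were 848, 555 and 757 on that scale. Rplp1 was thus lowered more than its partners, a comparison between genes that was not tested itself.

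**Figure D4:**
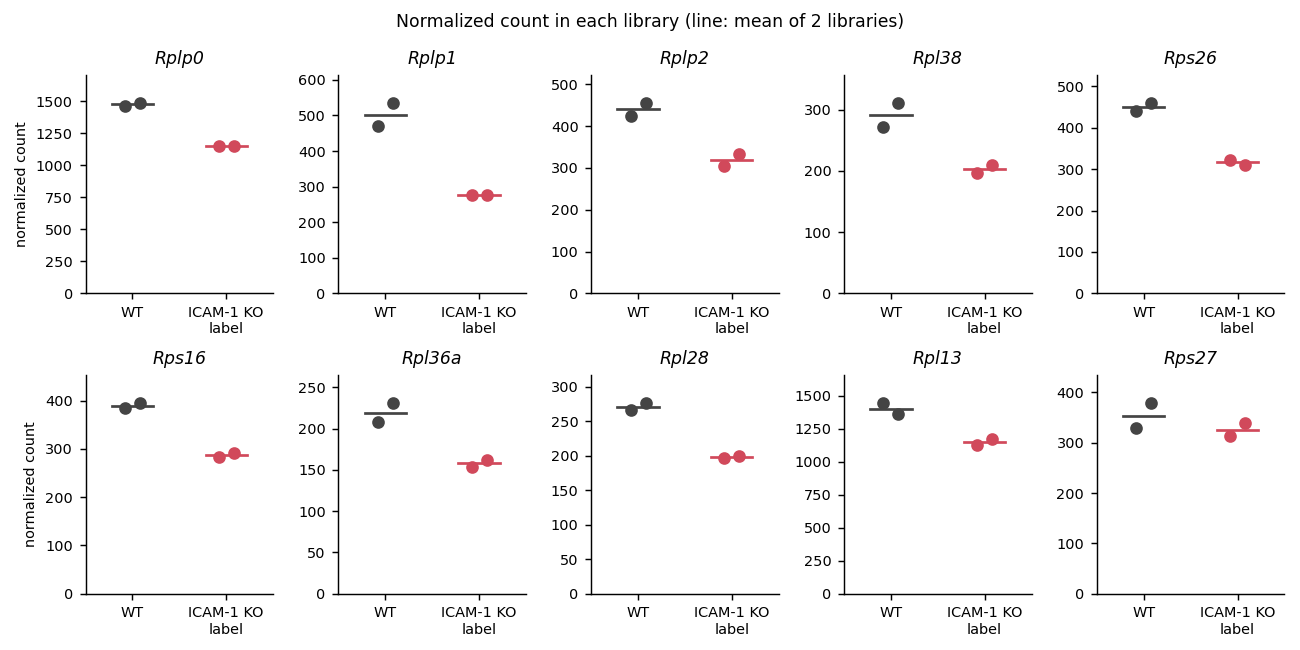
Normalized count (y axis, from 0) of 10 ribosomal protein genes in each WT and KO-labelled library, with points for libraries and lines for the mean of 2 libraries. In 9 of the genes both KO-labelled points lie below both WT points, and in Rps27 the groups overlap.

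Of the 32 small subunit genes, 12 were lower at the threshold (37.5%, against 4.97% of all genes tested) and the median log2 fold change was -0.28. Among the 12 were Rps26, Rps29, Rps16, Rps15, Rps23, Rps28, Rps10 and Rps20. Rps26, whose protein sits at the mRNA exit channel, had 441 and 460 normalized counts in WT and 323 and 309 in the KO-labelled libraries. Its log2 fold change was -0.48 (SE 0.0812, adjusted p = 0.00743), and with Rplp1 it was 1 of the 2 members that passed the threshold without each library in turn. Rps16 had 385 and 394 against 284 and 291 (log2 fold change -0.41, adjusted p = 0.0138). In both genes the gap between groups was larger than that between replicates.

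Several of the more abundant small subunit genes lay closer to 0. Rpsa, which encodes a ribosomal protein also known as a laminin receptor, had 1082 and 1139 normalized counts in WT and 902 and 914 in the KO-labelled libraries. It missed the threshold (log2 fold change -0.26, adjusted p = 0.0608), though the groups did not overlap. The same held for Rps3a1, with 1012 and 1100 against 859 and 882 (log2 fold change -0.25, adjusted p = 0.0801). Rps6, the ribosomal protein phosphorylated by S6 kinases downstream of mTORC1, had 901 and 939 against 756 and 801 (log2 fold change -0.21, adjusted p = 0.119). Over all 80 members, log2 fold change and mean normalized count had a Spearman's rho of 0.35, so the more abundant members tended to have smaller differences.

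Of the 45 tested large subunit genes, 20 were lower (44.4%, against 4.97% of all genes tested) and the median log2 fold change was -0.29. The 20 were Rpl38, Rpl36a, Rpl37, Rpl28, Rpl27, Rpl31, Rpl12, Rpl23, Rpl39, Rpl30, Rpl5, Rpl7a, Rpl26, Rpl6, Rpl35a, Rpl18, Rpl15, Rpl36, Rpl8 and Rpl19. Rpl38, known from mutant mice for its role in the translation of Hox mRNAs, had 273 and 311 normalized counts in WT and 196 and 209 in the KO-labelled libraries. Its log2 fold change was -0.50 (SE 0.0975, adjusted p = 0.0134), the lowest of the large subunit.

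Rpl36a, a gene of the X chromosome, had 208 and 231 normalized counts in WT and 154 and 163 in the KO-labelled libraries (log2 fold change -0.44, adjusted p = 0.0186). Rpl37 had 355 and 400 against 268 and 279 (log2 fold change -0.44, adjusted p = 0.0164). Both WT libraries were above both KO-labelled libraries in each, and the same was true of Rpl27 at 383 and 413 against 296 and 288 (log2 fold change -0.42, adjusted p = 0.0143). Rpl28 had 266 and 276 against 197 and 199 (log2 fold change -0.42, adjusted p = 0.0139). The gene Ube2s on the other strand overlaps Rpl28 and had up to 5134 counts, so the Rpl28 count is uncertain.

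Several of the more abundant large subunit genes lay closer to 0 and did not pass the threshold. Rpl13 had 1443 and 1359 normalized counts in WT and 1125 and 1175 in the KO-labelled libraries (log2 fold change -0.26, adjusted p = 0.0726), and Gm20388 overlaps it on the same strand. Rpl4 had 1228 and 1345 against 1090 and 1083 (log2 fold change -0.22, adjusted p = 0.121). Rpl32 had 883 and 988 against 748 and 791 (log2 fold change -0.25, adjusted p = 0.0938). In these 3 genes the groups did not overlap. Rpl3, whose protein helps to form the peptidyl transferase centre, had 1030 and 1037 against 907 and 906, a log2 fold change of -0.16 (SE 0.0781, adjusted p = 0.201).

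Per kilobase of transcript, the mean level over both groups ranged 17.7-fold among the members tested, from 1649 normalized counts per kilobase for Rpl32 to 93 for Rpl7l1. Most ribosomal proteins are present in equal numbers in a ribosome, while their mRNA levels per length differed here. Transcript length was that of 1 principal transcript per gene, so such levels are uncertain for genes with several ends.

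Several ribosomal protein genes have paralogs whose products can replace them, some with expression limited to testis or muscle. Rpl3l, the muscle paralog of Rpl3, was at 0 counts in both WT libraries and at 4 and 3 in the KO-labelled libraries, and was not tested. Rpl39l, a paralog known from testis, had 53 and 8 counts in WT and 9 and 24 in the KO-labelled libraries, and was below the limit for testing. Its mean in WT was 1.88 normalized counts per kilobase, against 528 for Rpl39. Rpl39 itself was lower, at 304 and 342 normalized counts in WT against 231 and 257 (log2 fold change -0.38, adjusted p = 0.0383). Rpl10l and Rps4l were not analysed here.

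Rpl22l1, the paralog of Rpl22 that T cells and other lymphocytes use beside it, was nearly as abundant as Rpl22. In WT, Rpl22 reached 313 and Rpl22l1 255 normalized counts per kilobase. Rpl22 had 139 and 158 normalized counts in WT and 112 and 120 in the KO-labelled libraries (log2 fold change -0.33, adjusted p = 0.0653), and Rpl22l1 had 138 and 144 against 115 and 118 (log2 fold change -0.25, adjusted p = 0.109). Neither passed the threshold. Rpl7l1 reached 104 normalized counts per kilobase in WT, against 714 for Rpl7. The log2 fold change of Rpl7l1 was -0.32 (adjusted p = 0.0589), and that of Rpl7 was -0.26 (adjusted p = 0.0931).

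Rps27 was the member with the smallest difference, and the only 1 of the 80 tested whose groups overlapped. It had 329 and 378 normalized counts in WT and 313 and 338 in the KO-labelled libraries, with a log2 fold change of -0.09 (SE 0.0976, adjusted p = 0.571). Its paralog Rps27l, a target of p53, had 172 and 189 against 145 and 158 (log2 fold change -0.22, adjusted p = 0.168). Of the X-linked genes, Rpl10 had a log2 fold change of -0.21 (adjusted p = 0.142) and that of Rps4x was -0.27 (adjusted p = 0.0911), and neither passed the threshold.

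The members lie on 18 autosomes and the X chromosome, and the median log2 fold change per chromosome ran from -0.36 on chromosome 12, with 2 members tested, to -0.22 on chromosome 3, with 4. Of the 7 on chromosome 9, which holds Icam1, none was within 20 Mb of it and Rplp1 was 40.9 Mb away. Their median was -0.27, and Rplp1 was the only 1 of the 7 past the threshold.

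Ribosomal proteins have many processed pseudogenes, and 80 of the 82 members had a count that was not whole in some library, which marks reads split with another gene, while 45% of all genes in the table had whole counts in every library. The table held 138 annotated pseudogenes with symbols that begin with Rpl or Rps, which took 0.0885% of counts in WT and 0.0722% in the KO-labelled libraries. Ribosomal protein pseudogenes under other symbols were not looked for, so the reads split with them are not covered here. Of the 44 tested, 1 was lower (2.27%, against 4.97% of all genes tested) and none was higher. An unadjusted p under 0.05 was found for 6, and the median log2 fold change was -0.34. With these named pseudogenes added to the members they are named after, an alternative chosen after seeing the data, 36 members were lower and the median stayed at -0.29.

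Other genes of the cytosolic ribosome fall outside the rule because of their symbols. Rack1, a scaffold of the small subunit, had 667 and 702 normalized counts in WT and 503 and 511 in the KO-labelled libraries (log2 fold change -0.41, adjusted p = 0.0138). Rpl36al, a near copy of Rpl36a with which reads can be split, had 325 and 353 against 243 and 258 (log2 fold change -0.41, adjusted p = 0.0194). Fau, the source of a small subunit protein fused to a ubiquitin-like protein, had 209 and 216 against 176 and 188 and missed the threshold (log2 fold change -0.20, adjusted p = 0.174).

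**Figure D5:**
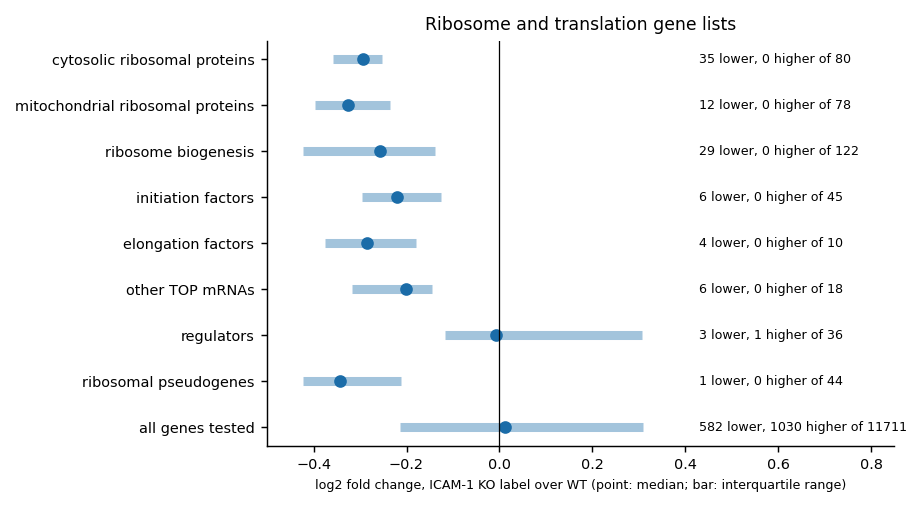
Median (point) and interquartile range (bar) of the log2 fold change, KO-labelled over WT libraries (x axis), for the ribosomal protein genes and related lists (y axis), with the number called in each direction. The medians of ribosomal, biogenesis and translation lists lie between -0.34 and -0.20, and those of the regulators and of all genes tested are near 0.

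Mitochondrial ribosomal proteins, which build the separate ribosome that translates mitochondrial mRNAs, also had negative log2 fold changes. This held for all 78, with a median of -0.33, while 12 (15.4%, against 4.97% of all genes tested) were lower at the threshold and none higher. The 12 became 3 and 2 without WT replicate 1 and 2, and 7 and 5 without KO-labelled replicate 1 and 2. The 3 with the smallest adjusted p were Mrpl36 (log2 fold change -0.73, adjusted p = 0.00418), Mrps28 (-0.62, adjusted p = 0.012) and Mrpl20 (-0.54, adjusted p = 0.0129), and the most abundant, Mrpl33, did not pass it (-0.18, adjusted p = 0.226). Genes of the mitochondrial chromosome had a median of 0.11, with none of 16 called and 4 at an unadjusted p under 0.05. Such a p was found for 3542 of all 11711 genes tested.

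Ribosome biogenesis factors process ribosomal RNA and assemble the subunits. Of 122 tested, 29 were lower (23.8%, against 4.97% of all genes tested) and none higher, with a median log2 fold change of -0.26. The 29 became 10 and 7 without WT replicate 1 and 2, and 18 and 21 without KO-labelled replicate 1 and 2. Nhp2, a subunit of the H/ACA particles that modify ribosomal RNA, had a mean of 163 normalized counts in WT and 103 in the KO-labelled libraries (log2 fold change -0.64, adjusted p = 0.00346). Nop16 fell by 0.72 on the log2 scale (adjusted p = 0.00418) and Tbl3, a subunit of the small subunit processome, by 0.60 (adjusted p = 0.00959). Nucleolin (Ncl), the most abundant of the list, had a mean of 1104 in WT and 824 in the KO-labelled libraries (log2 fold change -0.40, adjusted p = 0.02).

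Of 10 elongation factor genes 4 were lower (40%), and of 45 initiation factor genes 6 (13.3%), against 4.97% of all genes tested. None was higher in either list, against 8.8% of all genes tested. For the abundant genes described above, members included, the share lower was 15.1%, which the initiation factors did not exceed. Some factors of both lists were less abundant than those genes. Without WT replicate 1 and 2 the elongation factors called were 1 and 0 and the initiation factors 3 and 1, and without KO-labelled replicate 1 and 2 they were 2 and 1, and 2 and 4. Eif5a, which keeps ribosomes moving through proline-rich stretches, fell by 0.46 on the log2 scale (adjusted p = 0.00893). Eef1d and Eef1g, parts of the exchange factor of eEF1A, fell by 0.39 (adjusted p = 0.0193) and 0.34 (adjusted p = 0.0262). Eef1a1, the most abundant gene of these lists, had 4069 and 4368 normalized counts in WT and 3781 and 3719 in the KO-labelled libraries and missed the threshold (log2 fold change -0.14, adjusted p = 0.31). Eif6, which keeps the subunits apart, fell by 0.61 (adjusted p = 0.00641), Eif2b3 by 0.78 (adjusted p = 0.0147) and Eif4a3, a core of the exon junction complex, by 0.36 (adjusted p = 0.0258). Eif4g2 had a log2 fold change of 0.04 (adjusted p = 0.753).

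A further list held 18 other mRNAs with a known TOP motif, several of which are also in the lists above. Of these, 6 were lower (33.3%, against 4.97% of all genes tested) and none higher, with a median log2 fold change of -0.20. The 6 became 1 and 0 without WT replicate 1 and 2, and 3 and 2 without KO-labelled replicate 1 and 2. Npm1, the nucleolar protein nucleophosmin, had 939 and 1054 normalized counts in WT and 727 and 688 in the KO-labelled libraries (log2 fold change -0.47, adjusted p = 0.0116). The TOP non-coding RNA Gas5 had 183 and 191 against 197 and 205 (log2 fold change 0.13, adjusted p = 0.368). These 2 were named after their values had been seen.

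Regulators of ribosome synthesis and TOP translation gave no common direction. Of 36 tested, 3 were lower (8.33%), 1 was higher, and the median log2 fold change was -0.01. Among all genes tested, 4.97% were lower and 8.8% higher. The 3 became 0 and 1 without WT replicate 1 and 2, and 1 and 2 without KO-labelled replicate 1 and 2. Trp53, which is stabilised when free ribosomal proteins hold its ligase MDM2, had a mean of 160 normalized counts in WT and 111 in the KO-labelled libraries (log2 fold change -0.50, adjusted p = 0.0152), and its call was lost when genes of any count were tested (0.0546) and without WT replicate 1 (0.0765) or KO-labelled replicate 1 (0.0540). Larp1, the binder of TOP motifs, fell by 0.33 on the log2 scale (adjusted p = 0.0387), a call lost with total counts (0.052), when genes of any count were tested (0.0730) and without each library in turn. Myc, a transcription factor that drives ribosomal protein and biogenesis genes, had a mean of 83.4 in WT and 59.7 in the KO-labelled libraries (log2 fold change -0.45, adjusted p = 0.0417). The call of Myc was lost in the first 2 of these settings (0.0515 and 0.103) with filterByExpr (0.0501), and without WT replicate 1 (0.168), WT replicate 2 (0.0748) or KO-labelled replicate 1 (0.185). Rragd, a GTPase of the amino acid branch upstream of mTORC1, was rare in WT, with 0 and 27 counts against 135 and 163 (log2 fold change 3.52, adjusted p = 0.0134). Its call was lost with DESeq2 (adjusted p = 0.352), with edgeR's older form (0.0648), when genes of any count were tested (0.065) and without WT replicate 1 (0.0501), and at least 10 counts in every library left it out. The log2 fold change was 2.10 with limma, 2.55 without WT replicate 1 and 10.2 without WT replicate 2. Mxd1, a repressor that shares binding sites with MYC and the most abundant of the list, missed the threshold (log2 fold change 0.34, adjusted p = 0.0555).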

How the data were processed

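RNA from sorted ILC2s was made into cDNA with a SMARTer low-input kit and sequenced on a NextSeq 500. The authors aligned reads to mm10 with GENCODE M20 and deposited estimated counts per gene (E/M method of Partek), in which reads fitting several genes are split. The methods and the submitters' notes give different STAR versions. Whether strand was used in counting is not given in the sources used here. The deposited normalized signal equals the count plus 1, times 1 factor per library (upper quartile). The authors' GSA test was not run.

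Genotypes and replicate numbers came from the labels, and pool sizes and days from the methods. Expected counts were rounded and tested in edgeR 4.0.16 (R 4.3.3; estimateDisp, glmQLFit with legacy FALSE, upper quartile factors, no covariate) over the 11711 genes whose normalized counts averaged 1 or more and summed to 10 or more, the study's limits, with Benjamini-Hochberg adjustment over these genes. Called means an adjusted p under 0.05. The standard error (SE) was derived as the size of the log2 fold change divided by the square root of the test's F statistic. The test was tried on simulated data. DESeq2 1.42.0 and limma 3.58.1 (log2 of the normalized count plus 1) were alternatives. Values per gene are the authors' normalized counts, and lengths are from GENCODE M21, whose coordinates equal those of 80 members. Coordinates are the deposited ones, with each end moved by 1 base. Promoters are from RefSeq. P-values per gene measure differences against the spread between pooled libraries, which the tests estimate partly from the other genes. Reads carry no molecular identifiers, so counts are not independent molecules.

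Members, lists and limits were chosen with earlier results of these data known. The members named were the 10 most abundant, the 10 with the smallest adjusted p, paralog pairs, the stalk genes and Rpsa, beside those identified by a count. Of the other lists, up to 3 per direction and the most abundant were named. Some genes that this rule names are not reported here.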

Additional observations from a re-analysis of the deposited data

How the results depend on the processing

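The median log2 fold change of the members stayed between -0.34 and -0.26 under every normalization, filter and tool tried, and no member was higher under any of them, while the number lower, 35, moved with the tool, the filter and the libraries used. It was 69 with DESeq2, 54 with limma on log2 values and 56 with the replicate number as a block. It was 16 when all 22158 genes with any count were tested, and 0 with a 2-fold limit, and it was 42 with TMM factors, 30 with total counts, 27 with edgeR's older form, 33 with at least 10 counts per library and 42 with filterByExpr. Leaving out each library gave 2 to 18. Of all genes tested, leaving out a library gave 479 to 948 higher and 158 to 388 lower, against 1030 and 582. DESeq2 gave 930 lower, and testing every gene gave 334 higher and 201 lower. Replicate numbers are shared by both labels but mark different animals, and same-numbered libraries did not deviate together (correlation -0.058 over the genes tested), so the block has no basis in the design. With each library left out, Rps27 ran from -0.19 to 0.0105, the latter without WT replicate 2 (adjusted p = 0.968) and the only reversal among the members. The share difference of -0.766 points ran from -0.874 to -0.659 without each library in turn. Restricted to members with whole counts it was -3.58e-05 points, but these are only Rpl3l and Rpl39l, and no tested member had whole counts, so the planned repeats over such members gave no count or median. Without mitochondrial genes it was -0.772, an alternative chosen after seeing the data, as was scaling without the members, which left 35 lower. Depth does not limit the tested members, and for Rpl3l and Rpl39l no difference was detectable. Over the other normalizations, filters and tests, the lower biogenesis genes numbered 13 to 39 (29 in the reported fit) and the lower mitochondrial ribosomal proteins 3 to 23 (12 in that fit), and none of either list was higher. The lower regulators numbered 0 to 4 (3 in that fit) and the higher ones 0 to 5 (1 in that fit).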
